A study of Homo sapiens with 5 samples.

Results

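The genes described here are LEF1, the TCF factors TCF7, TCF7L1 and TCF7L2, and 6 genes that carry or brake the Wnt signal, namely CTNNB1, AXIN1, AXIN2, APC, GSK3B and NKD1. They were read through all probe sets (groups of short probes for a transcript) that the platform gene table gives to 1 of these genes alone. These were 32 of the 54613 probe sets on the array and belonged to 9 of the 10 genes, and TCF7 had none in the table used and was not analysed here. This choice of probe sets used no measured value, but the genes were chosen with earlier results of these data known. RNA came from C4-2B cells, a prostate cancer line derived from LNCaP that can form bone metastases, grown in medium with serum. There was 1 array each of cells given 25 µM BR-DIM (labelled B-DIM) for 6 h, BR-DIM for 48 h, 25 µM isoflavone for 6 h, isoflavone for 72 h, and the DMSO vehicle as control, for which the labels and methods state no time. BR-DIM is a formulation of 3,3′-diindolylmethane, a compound formed from cruciferous vegetables. The isoflavone was the soy mixture G2535, and its concentration refers to the genistein in it. Where a pair of values is given for a compound, the 6 h array comes first. With 1 array a condition there was no replicate, so no difference could be set against a spread between replicates and no test was made.

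In canonical Wnt signaling, cytosolic β-catenin, encoded by CTNNB1, is held by the scaffold AXIN1 and the tumor suppressor APC and marked for degradation by the kinase GSK3B. When a Wnt ligand binds its receptors, this destruction complex is checked, and β-catenin enters the nucleus and joins LEF1 and the TCF factors on DNA. AXIN2, NKD1 and often LEF1 are themselves induced by the pathway. AXIN2 rebuilds the destruction complex and NKD1 binds Dishevelled, so that both act as feedback brakes, and AXIN2 mRNA is widely used as a readout of the pathway. TCF7L1 acts mostly as a repressor.

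No member gene reached a 2-fold difference from the control on any of the 4 treated arrays. The signal is a linear intensity. A floor of 97.1, the overall median signal, replaced any lower value. A gene counted as measured where either array of a pair exceeded it, and the probe set brightest on average stood for its gene. On that basis 0 of 9 measured member genes were at least 2-fold higher or lower on BR-DIM 6 h, 0 of 8 on BR-DIM 48 h, 0 of 9 on isoflavone 6 h and 0 of 9 on isoflavone 72 h. Among all measured genes, 2.86% were at least 2-fold higher and 0.806% lower on BR-DIM 6 h. BR-DIM 48 h had 5.33% higher and 3.87% lower, isoflavone 6 h had 1.18% higher and 3.82% lower, and isoflavone 72 h had 4.80% higher and 2.06% lower. With so few members, shares of this size would leave few or no calls in any list, so a count of 0 does not set these genes apart. The median size of the log2 ratio to the control, without sign, was 0.27 and 0.12 for the members under BR-DIM, where all genes gave 0.27 and 0.37. Under isoflavone it was 0.38 and 0.37 for the members, where all genes gave 0.27 and 0.33. The signed medians of the members were 0.08 and 0.02 under BR-DIM and -0.28 and 0.28 under isoflavone, against 0.07, 0.06, 0.00 and 0.05 for all genes. The 4 treated arrays share the 1 control array, so a high or low control signal of a gene moves all of its ratios together.

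BR-DIM 48 h and isoflavone 6 h stood apart from the other arrays in genes of the prostate luminal epithelium. Of 12 such genes with a probe set, 11 were at least 2-fold lower than the control on each of them, while BR-DIM 6 h had 0 and isoflavone 72 h had 2. The summed signal of the 12 was 17734 and 5329 under BR-DIM, 4123 and 19339.7 under isoflavone and 19677 in the control. The luminal keratin KRT18 read 2939.8 and 1033 under BR-DIM, 461 and 2679.9 under isoflavone and 2738 in the control. KLK3, the PSA gene, had log2 ratios of -5.71 on BR-DIM 48 h (a bound) and -4.24 with isoflavone for 6 h. In RNA from a whole culture, fewer cells of a type and less RNA per cell cannot be told apart. Whether these 2 RNA samples match their labels was not tested, so each BR-DIM 48 h or isoflavone 6 h value is that of the array so labelled. Of 8 macrophage and osteoclast markers, 1 or 2 lay above the floor on each array, with summed signals from 298 to 440.4. Of 10 osteoblast and fibroblast markers, 2 to 5 did, with sums from 1055 on isoflavone 6 h to 2311 on BR-DIM 6 h, against 1426 in the control. The part of these differences in the results below was not tested. All arrays had been scaled to a common level, and between 48.4% and 52.6% of their probe sets lay above the floor.

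LEF1, the lymphoid enhancer factor that carries β-catenin to its target genes, was read by 3 probe sets. The brightest had signals of 1994 with BR-DIM for 6 h, 2745 with BR-DIM for 48 h, 1463 with isoflavone for 6 h and 1582 with isoflavone for 72 h, against 1751 in the control. LEF1 was thus above the control on both BR-DIM arrays and below it on both isoflavone arrays, by at most 1.57-fold (log2 ratio 0.65, BR-DIM 48 h). Its log2 ratio was 0.19 on BR-DIM 6 h, and the isoflavone ratios were -0.26 and -0.15. The second in brightness read 147 and 256 under BR-DIM, 144 and 150.2 under isoflavone and 236 in the control, or log2 ratios of -0.68, 0.12, -0.71 and -0.65. The 2 probe sets therefore went opposite ways on BR-DIM 6 h and the same way on the other 3 treated arrays, and both were highest on BR-DIM 48 h and lowest on isoflavone 6 h. BR-DIM 48 h over BR-DIM 6 h, which leaves out the control, was 0.46 by the brightest and 0.80 by the second. The third probe set lay under the floor on all 5 arrays, at 86.7 in the control and 9.1 to 15.9 elsewhere.

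**Figure D1:**
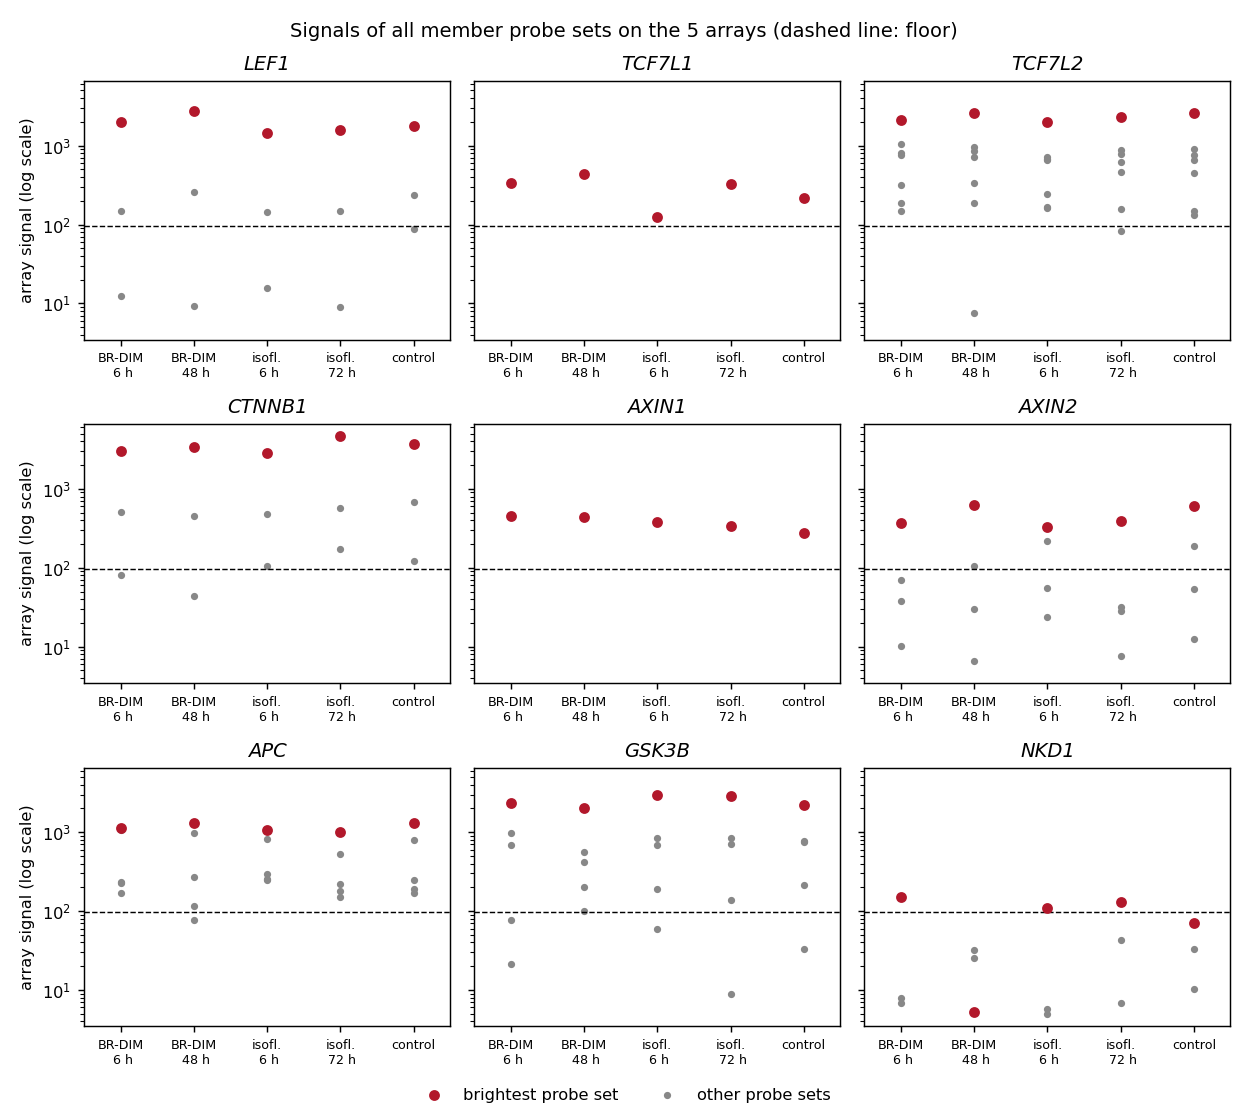
Array signal on a log axis (vertical) of each of the 32 probe sets of the 9 member genes on the 5 arrays (horizontal, 1 array per condition), with the brightest probe set of each gene in red, the others in grey and a dashed line at 97.1, the floor. LEF1 spans 1463 to 2745 by its brightest probe set, TCF7L1 124 to 433, and NKD1 stays close to or under the floor.

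TCF7L1, the mostly repressive family member, varied more than any other member gene whose brightest probe set stayed above the floor on all arrays. Its single probe set read 334 with BR-DIM for 6 h, 433 with BR-DIM for 48 h, 124 with isoflavone for 6 h and 327 with isoflavone for 72 h, against 217 in the control. The value on BR-DIM 48 h was 1.9995-fold the control, just under the 2-fold rule, and it passed the rule with quantile normalization (log2 ratio 1.03). BR-DIM 6 h and isoflavone 72 h were 1.54-fold and 1.51-fold above the control, and isoflavone 6 h was 1.74-fold below it. Its lowest signal, 124, and its highest, 433, fell on the 2 arrays low in luminal genes. Its signals are within a few multiples of the floor, and the probe set is of the _s_at kind, which can match several transcripts.

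TCF7L2, also called TCF-4 in the Wnt field and the main TCF of the gut epithelium, had 7 probe sets. The brightest read 2132 and 2589 under BR-DIM, 1986 and 2320.4 under isoflavone and 2578 in the control, so that it lay between 1.30-fold below the control on isoflavone 6 h and level with it on BR-DIM 48 h. Of the 7 probe sets above the floor on both arrays, 4 were above the control and 3 below it on BR-DIM 6 h, with log2 ratios from -0.50 to 0.50. On isoflavone 6 h 3 were above and 4 below, from -0.86 to 0.31. No probe set of TCF7L2 reached 2-fold in any comparison.

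By the brightest probe set LEF1, TCF7L1, TCF7L2 and AXIN2 were highest on BR-DIM 48 h and lowest on isoflavone 6 h. The share of all genes with this order was not counted. On BR-DIM 48 h TCF7L2 and AXIN2 were nearly level with the control (2589 against 2578 and 618 against 614). Dimmer probe sets differed. The second of AXIN2 was highest on isoflavone 6 h (219) and the second of TCF7L2 on BR-DIM 6 h (1058). The upstream sequences of LEF1 and TCF7L1 are shown as examples with and without the TCF core. They are the 250 bases before the RefSeq start site in the GRCh38.p14 promoter table, on the gene's strand, 5′ to 3′, with the TCF core CTTTG in capitals where it occurs on either strand (CAAAG on the printed strand).
LEF1, chr4:108166302-108166551 (minus strand): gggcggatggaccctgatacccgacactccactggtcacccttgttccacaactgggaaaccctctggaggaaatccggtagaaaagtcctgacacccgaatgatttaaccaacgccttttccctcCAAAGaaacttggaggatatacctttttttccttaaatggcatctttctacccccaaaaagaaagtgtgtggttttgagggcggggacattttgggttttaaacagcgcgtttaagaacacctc
TCF7L1, chr2:85133142-85133391 (plus strand): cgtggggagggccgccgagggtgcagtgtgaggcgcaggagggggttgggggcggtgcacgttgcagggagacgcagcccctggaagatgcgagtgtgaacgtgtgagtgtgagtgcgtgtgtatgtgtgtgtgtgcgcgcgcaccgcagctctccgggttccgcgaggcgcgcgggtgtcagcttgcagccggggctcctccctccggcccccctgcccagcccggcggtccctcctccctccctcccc
The LEF1 stretch holds 1 core, which begins at position -124 from the start site, and the TCF7L1 stretch holds 0. TCF7L2 has 3 start sites in the table, with 0, 3 and 1 cores, and TCF7 has 2, with 0 and 2. CTNNB1, GSK3B, AXIN1 and both APC starts have 0. The core is a common string, found in 42.1% of 35116 such upstream stretches. The longer forms CTTTGAA and CTTTGAT, on either strand, occur in 6.86% of the 300-base promoter windows and in 0 windows of the 8 member genes that have an entry, which are LEF1, TCF7, TCF7L1, TCF7L2, CTNNB1, AXIN1, APC and GSK3B. AXIN2 and NKD1 had no entry. No binding was measured, and a match or its absence is a description of the letters in this window only.

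CTNNB1, the β-catenin gene, had a brightest signal of 3053 with BR-DIM for 6 h, 3382 with BR-DIM for 48 h, 2877 with isoflavone for 6 h and 4669.7 with isoflavone for 72 h, against 3667 in the control. It was below the control by at most 1.27-fold on 3 arrays and above it by 1.27-fold on isoflavone 72 h. Its second probe set (513, 454, 483 and 580.2, against 689 in the control) was below the control on all 4 arrays, so the direction on isoflavone 72 h was not shared. The third, near the floor, read 80.2, 43.5, 107 and 176, against 123 in the control. Between the isoflavone times, which leaves out the control, all 3 were higher at 72 h than at 6 h, with log2 ratios of 0.70, 0.26 and 0.72.

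AXIN1, the scaffold that limits the amount of destruction complex, was above the control on every treated array by its single probe set. It read 452 and 444 under BR-DIM, 382 and 338 under isoflavone and 277 in the control, which are log2 ratios of 0.70, 0.68, 0.46 and 0.28. The control was the lowest of the 5 arrays. As the ratios share that control, the 4 higher values are not 4 separate observations.

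AXIN2, the Wnt-induced relative of AXIN1, was below the control on 3 of the treated arrays. The brightest of its 4 probe sets read 369 with BR-DIM for 6 h, 618 with BR-DIM for 48 h, 328 with isoflavone for 6 h and 393 with isoflavone for 72 h, against 614 in the control. The log2 ratios were -0.73, 0.01, -0.90 and -0.64, so AXIN2 was 1.56-fold to 1.87-fold lower on 3 arrays and level with the control on BR-DIM 48 h. BR-DIM 48 h was 1.68-fold above BR-DIM 6 h without the control. The second gave 37.6 and 105 under BR-DIM, 219 and 32.3 under isoflavone and 187 in the control. It too was lower on BR-DIM 6 h and isoflavone 72 h (bounds of -0.94 each, at the floor), but BR-DIM 48 h gave -0.83 and isoflavone 6 h gave 0.23, where the brightest probe set went another way. The remaining pair lay under the floor on all arrays. The second LEF1 probe set had nearly the same ratios as the brightest of AXIN2 (-0.68, 0.12, -0.71 and -0.65), which is a description over 5 arrays and shares the control.

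**Figure D2:**
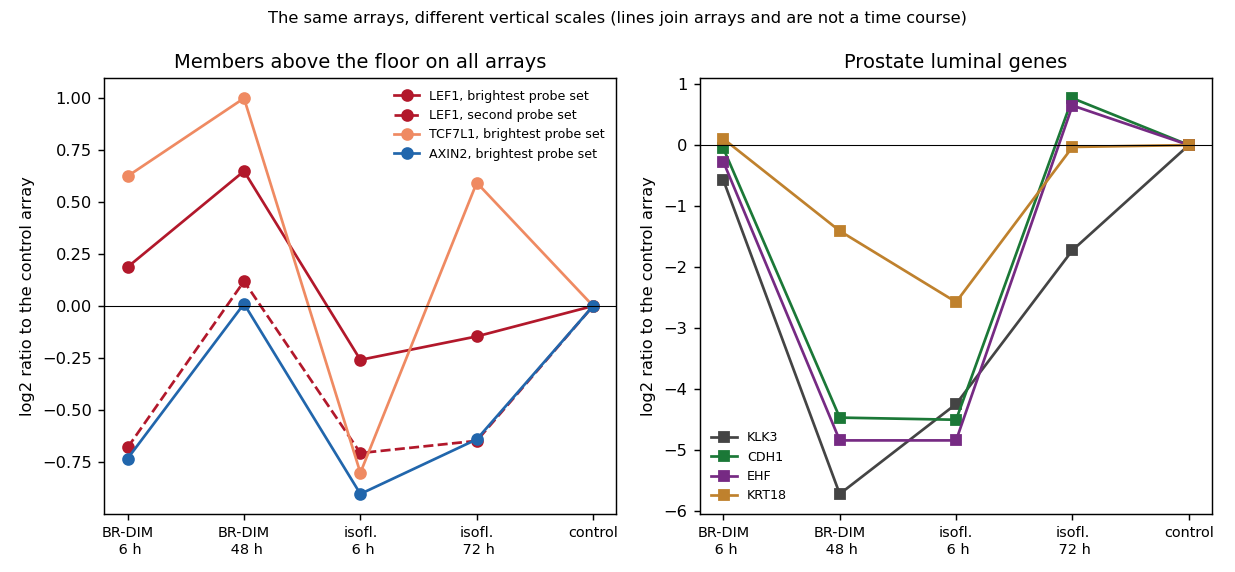
Log2 ratio to the control array (vertical) on the 4 treated arrays and the control (horizontal, 1 array per condition) of LEF1, TCF7L1 and AXIN2 probe sets above the floor on all arrays (left) and of 4 luminal genes (right, another vertical scale). The second LEF1 probe set and AXIN2 run together, LEF1 and TCF7L1 peak on BR-DIM 48 h, where KLK3, CDH1 and EHF have log2 ratios of -4.46 or lower.

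NKD1, the other feedback brake, was at the limit of detection. Its brightest probe set read 150.0 with BR-DIM for 6 h, 5.3 with BR-DIM for 48 h, 108 with isoflavone for 6 h and 129.5 with isoflavone for 72 h, against 71.2 in the control. The control and BR-DIM 48 h were under the floor, so the log2 ratios of 0.63, 0.16 and 0.42 on the other arrays are bounds. The other pair of NKD1 probe sets stayed under the floor on all 5 arrays.

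APC, the tumor suppressor of the destruction complex, stayed within 1.29-fold of the control by its brightest probe set, which read 1132 and 1318 under BR-DIM, 1060.5 and 999 under isoflavone and 1288 in the control. Of its 5 probe sets, all were lower on isoflavone 72 h than on isoflavone 6 h, with log2 ratios from -0.98 to -0.09. Against the control the probe sets were split, with 2 above and 3 below on BR-DIM 6 h and 4 above and 1 below on isoflavone 6 h. One of its dim probe sets read 77.1 on BR-DIM 48 h, against 235 on BR-DIM 6 h, at least 2.42-fold lower.

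GSK3B, the kinase that phosphorylates β-catenin, read 2326 with BR-DIM for 6 h, 2024 with BR-DIM for 48 h, 2926 with isoflavone for 6 h and 2869 with isoflavone for 72 h by its brightest probe set, against 2201 in the control. The highest ratio was 1.33-fold, on isoflavone 6 h. On BR-DIM 48 h all 4 probe sets above the floor on both arrays were below the control, with log2 ratios from -0.81 to -0.11, and the 3 above the floor on both BR-DIM arrays were lower at 48 h than at 6 h (-0.80 to -0.20). The second dimmest of its 5 was the only member probe set past 2-fold against the control. It read 76.2 on BR-DIM 6 h, against 215 in the control, a bound of -1.14, while the brightest probe set of GSK3B was 0.08 there. On BR-DIM 48 h the second dimmest read 199.4. It was thus higher at 48 h than at 6 h, a bound of 1.04, opposite to the 3 above the floor on both BR-DIM arrays.

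Over the 32 probe sets, 26 were measured in each comparison. At least 2-fold differences from the control numbered 1 on BR-DIM 6 h, which was the dim GSK3B one, and 0 on each other treated array, against 3.94% and 9.23% of all measured probe sets under BR-DIM and 4.70% and 7.39% under isoflavone. Probe sets of 1 gene often differed by as much as the arrays did. In all genes with 2 or more probe sets above the floor on both arrays, the median SD of the log2 ratio over a gene's probe sets was 0.26 and 0.29 under BR-DIM and 0.25 and 0.33 under isoflavone, and 44.1% to 50.5% of these genes had probe sets on both sides of the control. Probe sets of a gene are not replicates, but member ratios of this size cannot be read as changes from these arrays.

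**Figure D3:**
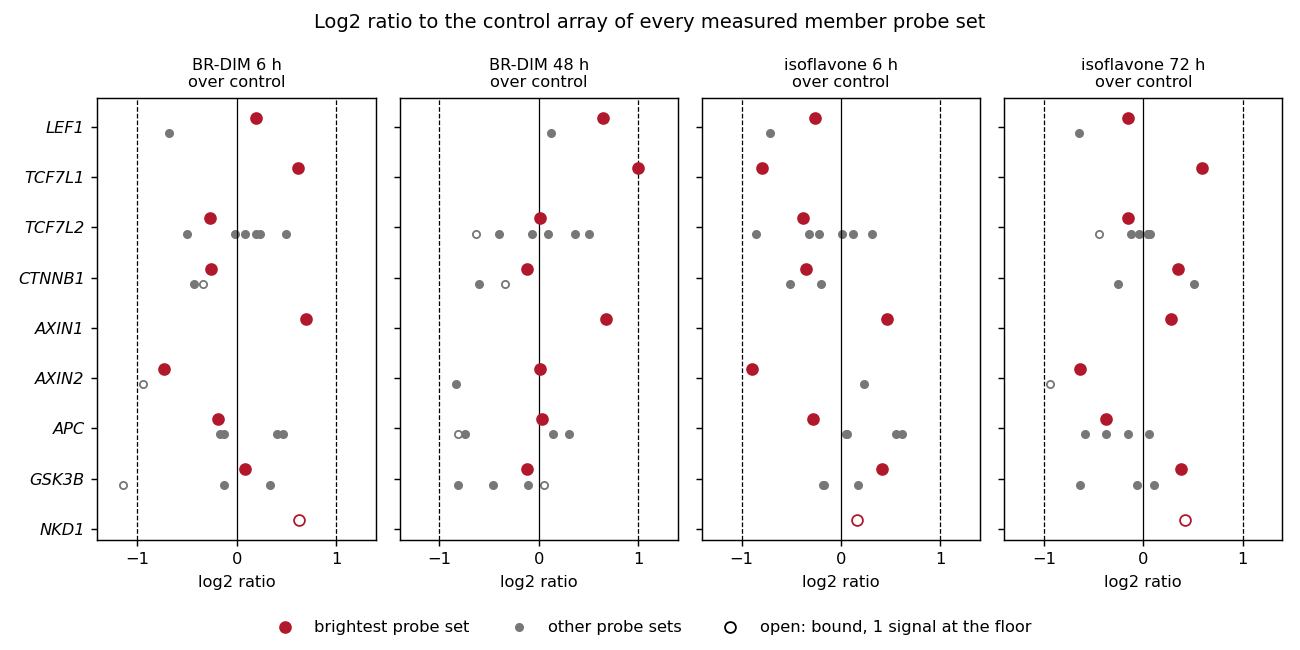
Log2 ratio to the control array (horizontal) of every measured probe set of the 9 member genes (rows), 1 panel per treated array with 1 array per condition, with the brightest probe set in red, the others in grey, bounds at the floor open and 2-fold marked by dashed lines. The GSK3B bound of -1.14 on BR-DIM 6 h lies beyond the lines, and TCF7L1 on BR-DIM 48 h lies just inside the upper one.

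The compounds were compared at the dose and time they share, 25 µM and 6 h (for isoflavone, 25 µM genistein). In this pair of arrays, TCF7L1 was 2.69-fold higher with BR-DIM than with isoflavone (334 against 124), and it was the 1 member gene of 9 past 2-fold. Of all measured genes 7.01% were at least 2-fold higher under BR-DIM, 1.12% lower. With quantile normalization the 916 higher and 146 lower genes became 688 and 249. The TCF7L1 call was lost when the floor was added as a pseudocount or raised to the 75th percentile of all signals, 471.7, which is above all its signals. LEF1 was 0.45 higher on the log2 scale by the brightest probe set and 0.03 by the second. AXIN2 was 0.17 higher by the brightest probe set and at least 2.26-fold lower by the second. The members were higher with BR-DIM in 8 of 9 genes, where 7327 of all 13075 were, with a median log2 ratio of 0.17 against 0.06 for all genes. At the level of probe sets 1 was at least 2-fold higher (TCF7L1) and 1 lower (AXIN2) of 26, against 7.43% past 2-fold of all. Isoflavone 6 h is the array with the lowest summed signal of luminal genes, 4123, against 17734 on BR-DIM 6 h, and a difference between compounds cannot be told apart from it here.

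Between the times of each compound, 1 member gene passed 2-fold. TCF7L1 was 2.63-fold higher on isoflavone 72 h than on isoflavone 6 h (327 against 124), where 7.77% of all genes were at least 2-fold higher and 1.89% lower, and 9.23% of all probe sets were past 2-fold. The second AXIN2 probe set was at least 2.26-fold lower there. On BR-DIM 48 h over BR-DIM 6 h 0 of 9 member genes passed, against 1.82% higher and 3.74% lower of all genes, and the largest ratio was that of AXIN2 (0.74). With quantile normalization the 244 higher and 501 lower genes became 334 and 412. The TCF7L1 call between the isoflavone times was lost under the same settings as the call between compounds. Dim probe sets of APC and GSK3B passed as bounds (-1.28 and 1.04), against 5.74% of all probe sets.

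The genes with the most similar pattern over the 5 arrays were found by the Euclidean distance between floored log2 signals centred on their mean, among 11257 other genes that reached 194.2, which is 2 times the floor, on at least 1 array. Nearest to LEF1 were PRDM6 (distance 0.117), COG5 (0.135) and, at 0.143 each, CDR2L, LOC730101 and GPR153. COG5, a subunit of a Golgi complex, read 1809 and 2499.6 under BR-DIM, 1278 and 1559 under isoflavone and 1548 in the control. Nearest to AXIN2 were C1QL1 (0.218), B3GNT4, UNK, ZDHHC8 and GPRC5B (0.268). None of these is on the Wnt lists used here, but those lists hold only 134 of the 19775 genes, so this does not set the patterns apart. Each gene was taken by its brightest probe set, and the second LEF1 probe set had another pattern.

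The rest of the pathway was described with 141 further genes, 134 of them on the array and 99 to 105 measured, depending on the comparison. Most lay within 2-fold of the control. Of 100 measured on BR-DIM 6 h, 2 were at least 2-fold higher and 0 lower. Of 102 on BR-DIM 48 h, 4 were higher and 4 lower. On isoflavone 6 h 0 were higher and 4 lower of 100, and on isoflavone 72 h 3 were higher and 2 lower of 100. The medians were 0.07, 0.09, -0.17 and 0.03, against 0.07, 0.06, 0.00 and 0.05 for all genes. On isoflavone 6 h 71 of 100 were below the control, while over all genes 6185 of 12456 were.

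Of 18 genes for Wnt ligands and their release, 8 to 10 were measured against the control, and among the ligands WNT5A, which acts largely through β-catenin-independent signaling, was the brightest. It read 674 and 548 under BR-DIM, 227 and 376 under isoflavone and 682 in the control, and was at least 2-fold lower on isoflavone 6 h (log2 ratio -1.59) by its brightest probe set. Its other probe set gave the same order at 6 h, with 464 for BR-DIM and 206 for isoflavone, against 617 in the control. The WNT5A receptors ROR1 and ROR2 were lower on the same array. ROR1 read 610.5 and 498 under BR-DIM, 215 and 519 under isoflavone and 494 in the control, and ROR2 read 214 and 174 under BR-DIM, 60.4 and 192 under isoflavone and 202 in the control. ROR1 had log2 ratio -1.20 on isoflavone 6 h and ROR2 a bound of -1.05. Of the 3 ROR1 probe sets, all were below the control there and 2 passed 2-fold, with log2 ratios from -1.92 (a bound) to -0.20. On isoflavone 72 h 1 of them was at 1.06. WLS, which escorts Wnt proteins out of the cell, stayed between 3487 and 4501, and the receptors RYK and FZD3 were within 1.51-fold of the control, all by their brightest probe sets. A dimmer FZD3 probe set had a log2 ratio of -1.06 on BR-DIM 48 h.

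Of the remaining receptors, FZD9 reached 217 on isoflavone 72 h, against 89.2 in the control, a bound of 1.16. LGR5, the R-spondin receptor and stem cell marker, read 868 and 764.5 under BR-DIM, 267 and 735 under isoflavone and 519 in the control, and was less than 2-fold away on every array (-0.96 on isoflavone 6 h). Its second probe set read 337 and 234 under BR-DIM, 168 on both isoflavone arrays and 265 in the control. ZNRF3, a ligase that removes Frizzled receptors and is itself a Wnt target, had 945 with BR-DIM for 6 h and 1225 to 1323 on the other treated arrays, against 1346 in the control.

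The inhibitor APCDD1, a membrane protein that binds Wnt and its coreceptor LRP5, was at least 2-fold higher on both BR-DIM arrays. It read 274 and 235 under BR-DIM, 198.5 and 209 under isoflavone and 115 in the control. Its log2 ratios, from signals near the floor, were 1.25 on BR-DIM 6 h, 1.03 at 48 h and, under isoflavone, 0.78 and 0.86. A second, dimmer probe set gave 0.01 on BR-DIM 6 h, a bound, and was not measured on the other treated arrays. The lowest signal of APCDD1 was that of the control, which all of these ratios share. It passed on neither BR-DIM array when its probe sets were averaged or the floor was added as a pseudocount. The same held with the floor raised to 471.7, which is above all its signals. KREMEN1, a receptor for Dickkopf proteins, passed on isoflavone 72 h alone (387, against 188 in the control), by 1 of 4 measured probe sets, with the lowest at -0.22, and did not pass when its probe sets were averaged. SFRP1, a secreted decoy, ranged from 463 on BR-DIM 48 h to 825 on BR-DIM 6 h, against 690.4 in the control.

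Inside the cell, DACT1, a Dishevelled antagonist, read 347 and 738.5 under BR-DIM, 126 and 234 under isoflavone and 235 in the control, a log2 ratio of 1.65 on BR-DIM 48 h. NKD2, the relative of NKD1, and CSNK1E, casein kinase 1ε, were lower on isoflavone 72 h. NKD2 read 271 and 234 under BR-DIM, 304 and 152 under isoflavone and 348 in the control. By its brightest probe set CSNK1E read 1124 and 759 under BR-DIM, 943 and 502 under isoflavone and 1239 in the control. The second CSNK1E probe set read 157 and 130.5 under BR-DIM, 409 and 128 under isoflavone and 232 in the control. It was thus above the control on isoflavone 6 h, and its log2 ratio on isoflavone 72 h was -0.86. BCL9, which links β-catenin to PYGO proteins, was lower on BR-DIM 48 h (104.5, against 321 in the control, log2 ratio -1.62) and was 168 on BR-DIM 6 h. By their brightest probe sets, CSNK1A1, PPP2CA, HDAC1 and HDAC2 stayed within 1.45-fold of the control on all arrays, but dimmer probe sets of 3 of them passed 2-fold. In log2 ratios, PPP2CA had 2 on BR-DIM 48 h (the higher at 1.23), 1 on isoflavone 6 h (1.19) and 1 on isoflavone 72 h (1.35). HDAC2 had 1 at 1.16 on isoflavone 6 h. CSNK1A1 had 1 at -1.13 on BR-DIM 48 h and 1 at -1.05 on isoflavone 72 h.

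Of the cadherins, which hold β-catenin at the membrane, CDH1 was low on the 2 arrays low in luminal genes, with 2114 and 99.5 under BR-DIM, 85.9 and 3736 under isoflavone and 2195 in the control. By its brightest probe set CDH2, N-cadherin, read 2731 and 3511 under BR-DIM, 2696 and 2539 under isoflavone and 2098 in the control. The second CDH2 probe set read 1222 and 971 under BR-DIM, 582 and 660.6 under isoflavone and 695.5 in the control. The α-catenin gene CTNNA1 read 4512 and 5061 under BR-DIM, 4520.3 and 5009 under isoflavone and 3401 in the control by its brightest. Of its measured probe sets, 2 were above and 2 below the control on BR-DIM 6 h, and 4 above and 0 below on BR-DIM 48 h. On isoflavone 6 h 1 was above and 3 below, and on isoflavone 72 h 3 were above and 2 below. On the 2 arrays low in luminal genes CTNNB1 was within 1.27-fold of the control by its brightest probe set, and 1.52-fold and 1.43-fold lower by its second.

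Of 30 further genes known as Wnt targets, 29 had a probe set. At least 2-fold higher were 2 of 21 measured on BR-DIM 6 h, 3 of 23 on BR-DIM 48 h, 0 of 21 on isoflavone 6 h and 1 of 22 on isoflavone 72 h, and at least 2-fold lower were 0, 2, 0 and 1. Over all genes the shares higher and lower were 2.86% and 0.806%, 5.33% and 3.87%, 1.18% and 3.82%, and 4.80% and 2.06%, on the same arrays in turn. Above and below the control, whatever the size, stood 10 and 11 on BR-DIM 6 h and 16 and 7 at 48 h. Under isoflavone these were 4 and 17 at 6 h and 9 and 13 at 72 h. All genes had 7442 above and 5577 below on BR-DIM 6 h, and 7036 and 5885 at 48 h. For isoflavone they had 6265 and 6185, then 6848 and 5754. MYC read 8792 and 8477 under BR-DIM, 8370.1 and 5732 under isoflavone and 6395 in the control. BIRC5, the survivin gene, was below the control on all 4 by its brightest probe set, with log2 ratios of -0.59, -0.75, -0.16 and -0.83. Of its 4 probe sets, all were below the control on BR-DIM 6 h, and 1 was above it on BR-DIM 48 h (0.50). Under isoflavone 2 were above at 6 h and 1 at 72 h, where another passed 2-fold lower (-1.12). CCND1, the cyclin D1 gene, had by its brightest probe set 742 and 516 under BR-DIM, 796 and 876 under isoflavone and 1264 in the control, which at 48 h of BR-DIM is a log2 ratio of -1.29. Its other probe set read 182 and 232 under BR-DIM, 97.8 and 111 under isoflavone and 346 in the control. CCND1 was thus below the control on all 4 arrays by both, but the probe sets differed in where they passed 2-fold. The dimmer one passed under isoflavone, at -1.82 and -1.64, and had -0.58 at 48 h of BR-DIM. VEGFA, which many signals other than Wnt induce, was the target with the highest ratios, with a brightest probe set at 2599.7 and 2333 under BR-DIM, 602 and 3905 under isoflavone and 874 in the control. Its 4 probe sets were all above the control on 3 treated arrays, but on isoflavone 6 h they were split, with log2 ratios from -1.07 to 1.12. Each of these extremes is a bound at the floor from a dimmer probe set. The 2 brightest were both below the control on isoflavone 6 h (602 against 874, and 415 against 571). CD44 was higher on BR-DIM 48 h (434, against 183 in the control). Of its 13 probe sets 6 were measured there, all above the control and 3 past 2-fold, with log2 ratios from 0.51 to 1.55. MITF was lower on BR-DIM 48 h (382, against 809 in the control), and a second MITF probe set read 326 there, against 315 in the control. Neither CD44 nor MITF passed 2-fold on BR-DIM 48 h when probe sets were averaged or the floor was added as a pseudocount.

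**Figure D4:**
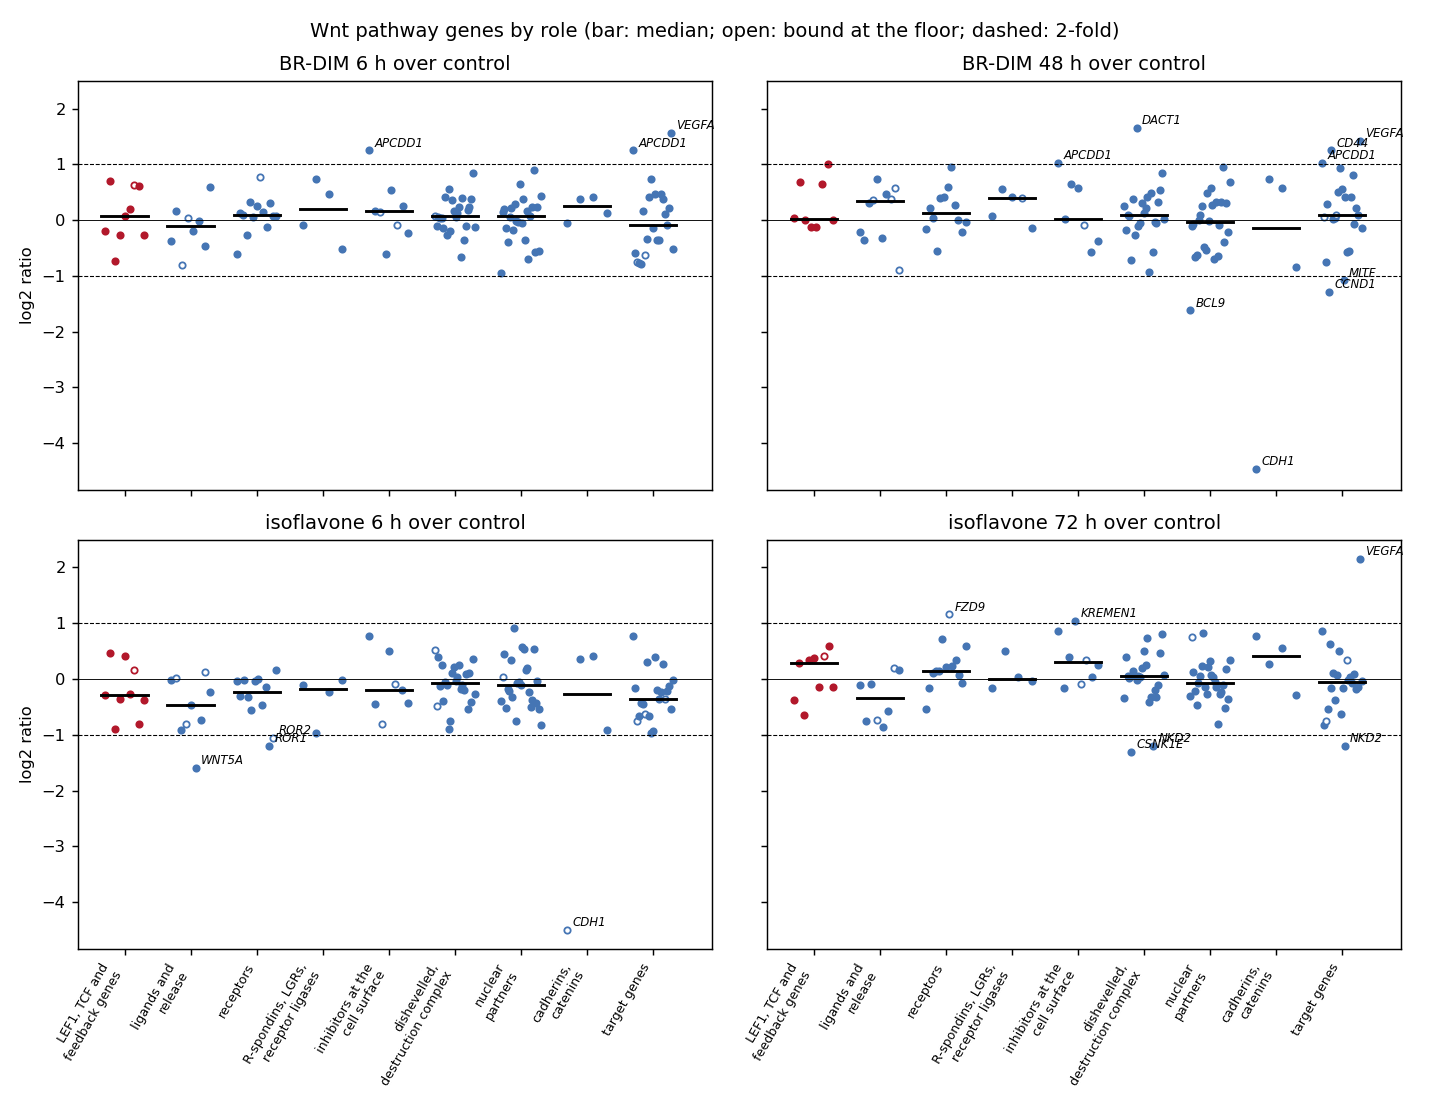
Log2 ratio to the control array (vertical) of each measured gene by its brightest probe set, grouped by role in the Wnt pathway (horizontal), 1 panel per treated array with 1 array per condition. Members are red, other genes blue, bounds at the floor open, bars medians and dashed lines 2-fold, and the other genes past 2-fold are named. All members lie within 2-fold, while CDH1 lies near -4.5 on BR-DIM 48 h and isoflavone 6 h.

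Without the control, the other Wnt genes gave 12 at least 2-fold higher and 1 lower of 99 with BR-DIM 6 h over isoflavone 6 h, where 7.01% of all genes were higher and 1.12% lower. The higher ones were WNT5A, WNT10B, ROR1, ROR2, LGR5, DACT1, EP300, TNIK, CDH1, JUP, JAG1 and VEGFA, and CTNNBIP1, which keeps β-catenin off TCF, was lower. BR-DIM 48 h over BR-DIM 6 h had 5 higher and 2 lower of 105 (1.82% and 3.74% of all genes), and isoflavone 72 h over isoflavone 6 h had 8 higher and 1 lower of 100 (7.77% and 1.89%). LGR5, ROR1, TNIK, CDH1 and VEGFA were among the higher in the first and the last of these comparisons, which share the isoflavone 6 h array. The second LGR5 probe set was level between the isoflavone times (log2 ratio -0.01). When probe sets were averaged, LGR5 passed in the first alone and TNIK in neither, and JAG1 no longer passed in the first. With quantile normalization EP300, JUP and WNT10B no longer passed in the first.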

How the data were processed

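Total RNA from C4-2B cells was labelled and hybridised to Affymetrix Human Genome U133 Plus 2.0 arrays, 1 array for each of 5 conditions. The authors made the intensity values with Microarray Suite (MAS5 in the processing notes of the submitters), MicroDB and Data Mining Tool, one linear value for each probe set. They scaled the arrays before deposit, since the trimmed means lay between 498.1 and 498.4. The version, the scaling target and detection calls are not given in the sources used here, and control time likewise. No further scaling was applied to them.

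Of 54613 probe sets, 41091 carried 1 gene symbol in the platform gene table, 1801 several and 11721 none. Only those with 1 symbol were used, for 19775 genes. For array data the number of arrays limits the precision: 5 arrays, 1 per condition, allow no test. The floor was 97.1, ratios that touch it are bounds, and differences of 2-fold or more were counted. The alternatives were quantile normalization, median ratio scaling, leaving out the floor, raising it to the 75th percentile (471.7), adding it as a pseudocount, averaging each gene over its probe sets, dropping the _s_at and _x_at kinds, and thresholds of 1.5-fold and 3-fold. The members and lists were chosen with earlier results of these data known.

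Named were all members, the Wnt genes past 2-fold against the control that reached 2 times the floor, the 2 brightest of each list, and the 5 genes nearest in pattern to LEF1 and to AXIN2. COG5 was given with its values, and WNT10B, EP300, TNIK, JUP, JAG1 and CTNNBIP1 were named, with their values known. Ratios and counts were first checked on simulated data. Promoters on chromosome 8 and of mitochondria were left out of the motif search. Python 3.11.15, numpy 2.4.6, pandas 2.3.3 and matplotlib 3.10.9 were used.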

Additional observations from a re-analysis of the deposited data

How the results depend on the processing

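No paired analysis was possible because there is 1 array per condition, and for the same reason no array was left out. The member genes past 2-fold numbered 0 on each treated array against the control, and this changed as follows. Without a floor, the count was 1 on BR-DIM 6 h, through NKD1 near the floor. With quantile normalization it was 1 on BR-DIM 48 h, through TCF7L1. With a 1.5-fold rule it was 4 and 3 on the BR-DIM arrays (6 h, then 48 h) and 2 on each isoflavone array. Of all genes, that rule called 12.4% higher and 5.15% lower on BR-DIM 6 h, and 16.8% and 12.6% on BR-DIM 48 h. It called 7.14% and 11.5% on isoflavone 6 h, and 15.0% and 9.73% on isoflavone 72 h. For BR-DIM 6 h over isoflavone 6 h, and likewise for isoflavone 72 h over isoflavone 6 h, the 1 call of TCF7L1 went to 0 with a floor at the 75th percentile, which lies above all its signals, with the floor as a pseudocount, without _s_at and _x_at probe sets, which leaves TCF7L1 with none, and with a 3-fold rule. The second comparison had 2 with a 1.5-fold rule, which called 18.8% of all genes higher and 10.3% lower there. BR-DIM 48 h over BR-DIM 6 h went from 0 to 1 without a floor and with a pseudocount (NKD1) and without _s_at and _x_at probe sets (APC, -1.28). It went to 2 with a 1.5-fold rule, which called 8.68% of all genes higher and 11.9% lower there.

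The other Wnt genes past 2-fold in either direction numbered 2 and 8 for BR-DIM against the control (6 h, then 48 h), 4 and 5 for isoflavone (6 h, then 72 h), and 13, 7 and 9 for BR-DIM 6 h over isoflavone 6 h, BR-DIM 48 h over 6 h and isoflavone 72 h over 6 h. In that order of 7 comparisons they numbered 19, 27, 21, 21, 27, 20 and 28 with a 1.5-fold rule and 0, 3, 2, 1, 3, 2 and 2 with a 3-fold rule. Over these comparisons, the 1.5-fold rule called 7.14% to 18.8% of all genes higher and 5.15% to 12.6% lower. The 3-fold rule called 0.0883% to 2.33% higher and 0.0691% to 0.971% lower. A floor at the 75th percentile gave 1, 3, 1, 2, 3, 1 and 2, where 0.583% to 3.43% of all genes were higher and 0.354% to 2.15% lower. Without a floor, the BR-DIM arrays had 4 and 13, the early isoflavone array 10, and the times of BR-DIM and isoflavone 12 and 15. Over the 7 comparisons without a floor, 3.74% to 13.3% of all genes were higher and 2.44% to 8.38% lower. The pseudocount gave 2 on isoflavone 72 h, 7 between the compounds at 6 h and 4 between the BR-DIM times. Averaged probe sets gave 1 on BR-DIM 6 h and 4 on BR-DIM 48 h, and leaving out _s_at and _x_at probe sets gave 1 on BR-DIM 6 h and 8 between the compounds. Over the 7 comparisons, the pseudocount called 0.763% to 5.67% of all genes higher and 0.538% to 2.82% lower. Averaging called 0.55% to 4.01% higher and 0.496% to 2.51% lower. Leaving out these kinds called 1.39% to 7.85% higher and 1.06% to 4.2% lower. MITF on BR-DIM 48 h turned to 0.05 without _s_at and _x_at probe sets. Quantile normalization moved the split of all genes past 2-fold between BR-DIM 6 h and isoflavone 6 h from 916 higher and 146 lower to 688 and 249, and between the BR-DIM times from 244 and 501 to 334 and 412. The causes of these shifts were not tested except where the construction shows them.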
